A study of Mus musculus with 4 samples.

Results

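The genes described here are 78 genes of the mouse named as mitochondrial ribosomal proteins. They are every feature whose symbol is Mrpl or Mrps followed by a number, with pseudogenes left out. Mitochondrial ribosomal proteins with other names are not included. The 78 genes are among 32285 features counted, 49 named for the large subunit (Mrpl) and 29 for the small subunit (Mrps). All are annotated as protein coding. Mitochondria carry their own ribosome, which translates the few proteins encoded by mitochondrial DNA, all of them subunits of the respiratory chain and ATP synthase. Its ribosomal RNAs come from mitochondrial DNA, but its proteins are encoded in the nucleus, made in the cytosol and imported. In the intestinal epithelium, stem cells at the crypt base feed a zone of dividing cells, whose daughters become absorptive enterocytes or secretory goblet, Paneth, enteroendocrine and tuft cells.

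Symbol and structure do not match for every member. Mrps30 and Mrps18a carry small subunit names but sit in the large subunit, and Mrps36 is a subunit of the 2-oxoglutarate dehydrogenase complex of the citric acid cycle. Counts by subunit follow the symbols unless stated. In the gene models of the mm10 build, 4 members overlap another protein-coding gene on the same strand (Mrpl53 with Gm42688, Mrps24 with Urgcp, Mrps34 with Nme3, and Mrps6 with Slc5a3 and Gm49711), so their counts are less certain, and 23 overlap one on the opposite strand.

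Transcripts were counted in single epithelial cells from the small intestine of 25-week-old mice, after a cell sort with CD45, CD31, TER-119, CD326 and DAPI. The title of the series names acute colitis, but no sample label names a treatment, so whether these mice had colitis is not known here. The 4 libraries are 2 from wild type mice and 2 from mice whose mitochondrial DNA carries G5081A, a point change in TrnA (the alanine tRNA gene), at a stated load of 77% in mutant 1 and 81% in mutant 2. The titles of wild type 1 and mutant 1 name no sex, and their matrices came from Cell Ranger 7.0.0 (called set A here), while those of wild type 2 and mutant 2 name males, with matrices from Cell Ranger 7.1.0 (set B). No mitochondrial tRNA is among the features, so neither the mutation nor its load could be checked in these data. The labels do not say that the libraries of a genotype came from separate animals, so p-values here reflect only how far these libraries spread, which may be technical.

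The libraries held between 99772712 and 127796409 unique molecular identifiers (UMIs, each standing for 1 captured transcript), and 4247, 7296, 10004 and 7575 epithelial cells were kept in wild type 1, wild type 2, mutant 1 and mutant 2; values of the 4 libraries are given in this order throughout. The median UMIs per epithelial cell were 20578, 10866.5, 9461.5 and 10465 in the 4 libraries, so wild type 1 was the deepest per cell. Pairs of libraries shared 7 to 25 cell barcodes. Cells were clustered without the member genes and named from markers as stem-like, cycling-like, enterocyte-like, goblet-like, Paneth-like, enteroendocrine-like and tuft-like, and stem-like and cycling-like cells together are called crypt cells. Erythroid markers (5 genes) summed to 3.67 and 1.84 CPM (counts per 1000000 UMIs) in the wild types and to 25.9 and 17.4 CPM in the mutants, and the lists for lymphocytes, plasma cells, myeloid, endothelial and fibroblast cells to at most 7.60 CPM in any library. Paneth-like markers summed to 28518, 75676, 43926 and 92221 CPM, the higher values both being of set B.

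Promoters are shown because member transcripts moved together across the cell classes described below. Whether any promoter motif bears on that was not tested. RefSeq promoter windows of the GRCm38.p6 build, from 250 bases before to 50 after the start site, were matched by symbol to 69 of the 78 members (75 windows). Motifs of 3 general activators of genes for mitochondrial proteins were searched on both strands: NRF1 as GCGCANGCG, ETS factors as CCGGAAG and YY1 as AANATGGC. NRF1 matched in 21.3% of member windows and 6.25% of all 32851 windows, ETS in 34.7% and 8.86%, and YY1 in 28% and 6.05%. At least 1 of the 3 stood in 48 of 75 member windows (64%) and in 18.6% of all windows. Member windows also held more G and C, with a median of 58.7% against 52.7%, and a match is a description of letters, not a site. The windows of all genes were not limited to genes expressed in these cells.

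The 5 windows below belong to the members on which the results turn, with motif matches on either strand in capitals. Mrpl12 (chr11:120484387-120484686, plus strand, 1 NRF1 match) had the highest level, and Mrps22 (chr9:98601630-98601929, minus strand, 1 ETS match) varied most between classes. Mrps27 (chr13:99344536-99344835, plus strand, 1 ETS and 2 YY1 matches) had the largest excess in crypt cells, and Mrpl51 (chr6:125191950-125192249, plus strand, 1 ETS and 1 YY1 match) the largest excess in cycling-like over stem-like cells. Mrps36 (chr13:100744610-100744909, minus strand, no match) was lower in crypt cells, opposite to most members.
Mrpl12: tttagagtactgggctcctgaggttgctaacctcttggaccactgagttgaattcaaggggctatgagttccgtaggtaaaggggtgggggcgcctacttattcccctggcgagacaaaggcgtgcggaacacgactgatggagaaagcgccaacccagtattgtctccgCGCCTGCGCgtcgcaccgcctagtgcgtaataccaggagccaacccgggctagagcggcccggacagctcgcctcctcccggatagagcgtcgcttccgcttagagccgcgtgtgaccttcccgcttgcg
Mrps22: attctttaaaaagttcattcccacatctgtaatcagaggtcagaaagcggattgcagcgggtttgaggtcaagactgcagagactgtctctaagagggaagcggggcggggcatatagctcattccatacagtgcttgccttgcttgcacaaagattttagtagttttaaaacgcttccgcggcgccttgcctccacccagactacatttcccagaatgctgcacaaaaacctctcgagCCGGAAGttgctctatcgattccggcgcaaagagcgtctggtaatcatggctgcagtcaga
Mrps27: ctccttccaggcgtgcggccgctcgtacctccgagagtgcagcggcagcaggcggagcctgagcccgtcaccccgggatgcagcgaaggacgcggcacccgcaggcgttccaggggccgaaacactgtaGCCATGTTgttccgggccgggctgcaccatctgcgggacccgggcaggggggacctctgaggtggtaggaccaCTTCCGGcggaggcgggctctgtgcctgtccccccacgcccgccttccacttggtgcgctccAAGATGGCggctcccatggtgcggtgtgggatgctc
Mrpl51: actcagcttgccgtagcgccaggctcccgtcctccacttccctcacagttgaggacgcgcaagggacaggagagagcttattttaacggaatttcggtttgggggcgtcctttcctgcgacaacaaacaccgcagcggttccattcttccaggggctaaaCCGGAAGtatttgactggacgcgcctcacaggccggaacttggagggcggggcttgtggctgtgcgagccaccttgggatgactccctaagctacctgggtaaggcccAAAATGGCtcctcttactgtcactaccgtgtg
Mrps36: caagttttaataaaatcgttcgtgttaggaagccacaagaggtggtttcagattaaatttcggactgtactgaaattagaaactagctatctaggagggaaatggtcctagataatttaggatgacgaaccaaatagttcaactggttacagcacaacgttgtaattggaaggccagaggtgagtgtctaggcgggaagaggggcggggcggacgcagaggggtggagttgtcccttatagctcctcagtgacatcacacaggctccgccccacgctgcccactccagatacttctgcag

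Many members start close to a gene transcribed in the opposite direction. A protein-coding gene on the opposite strand started within 1000 bases upstream of 18 of the 78 members (23.1%), against 6.79% of 21951 protein-coding genes. Head-to-head pairs whose starts overlap were left out of both counts. Mrpl51 lies 100 bases from Ncapd2, which encodes a subunit of condensin, the complex that compacts chromosomes at mitosis. Mrps12 lies 172 bases from Sars2, the mitochondrial seryl-tRNA synthetase, and Mrps27 lies 81 bases from Ptcd2, a mitochondrial RNA-binding protein. In mm10 the gene of Mrpl12 spans chr11:120484613-120489065, Mrps22 chr9:98588730-98601660, Mrps27 chr13:99344786-99415562, Mrpl51 chr6:125191801-125196269 and Mrps36 chr13:100735955-100744659. Distances and spans are from GENCODE models, whose start of Mrpl51 lies upstream of the RefSeq start used for its window. The gene bodies of Mrpl46 and Mrps11, 1 member of each subunit, overlap by 413 bases at their starts on opposite strands. This pair is therefore not among the 18.

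Every member was detected in every library, with at least 1239 UMIs of each in the epithelial cells of any library. The mean level over the 4 libraries ran from 15.2 CPM (Mrps2) to 222 CPM (Mrpl12), with a median of 78.8 over the 78 members, 78.3 over the large and 81.2 over the small subunit. These are molecules counted at one transcript end and not divided by gene length. The most abundant large subunit member was Mrpl12, a protein of the flexible stalk, followed by Mrpl42 (213 CPM), Mrpl20 (192 CPM), Mrpl34 (178 CPM) and Mrpl52 (157 CPM). In the small subunit they were Mrps24 (201 CPM), Mrps14 (198 CPM), Mrps16 (147 CPM), Mrps21 (119 CPM) and Mrps33 (117 CPM).

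Mrpl12 stood at 223, 202, 260 and 204 CPM in the 4 libraries and Mrpl42 at 211, 212, 224 and 204 CPM. Their ranges overlap, so the order of the first places lies within the spread of the libraries. The lowest large subunit members were Mrpl47 (27.3 CPM), Mrpl37 (28.5 CPM) and Mrpl39 (30.5 CPM), and the lowest small subunit members Mrps2, Mrps27 (21.6 CPM) and Mrps11 (26.6 CPM). The 5 most abundant members held 21.3% of the UMIs of the large and 32.9% of those of the small subunit. Among the 3 relatives of bacterial ribosomal protein S18, Mrps18a stood at 61.3, Mrps18b at 59.1 and Mrps18c at 108 CPM. Mrpl58, a peptidyl-tRNA hydrolase built into the large subunit, stood at 61.7 CPM and Mrps12, a protein of the decoding centre, at 114 CPM.

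Cycling-like cells carried the most member transcripts of the 7 classes, and which class carried the fewest depended on the scaling. With TMM, a scaling that assumes that most genes do not differ between sums, the 78 members summed to 8030, 8706, 7858 and 9659 CPM in cycling-like cells (8563 ± 817, SD, n = 4). In enteroendocrine-like cells they summed to 2944, 3169, 3011 and 3074 CPM (3049 ± 95.8, SD, n = 4). Every cycling-like library lay above, and every enteroendocrine-like library below, all libraries of the other 5 classes.

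Between these ends the classes formed 2 overlapping groups. Enterocyte-like (6328 ± 337 CPM, SD, n = 4) and stem-like cells (6273 ± 473 CPM) overlapped each other. Paneth-like (5052 ± 331 CPM), goblet-like (4878 ± 293 CPM) and tuft-like cells (4271 ± 632 CPM) overlapped each other and lay below the first group in every library. Scaled by library size only, cycling-like cells remained highest at 8907 to 10123 CPM, but Paneth-like cells were lowest at 1526 to 2108 CPM, tuft-like cells stood at 5295 to 6792 CPM and enteroendocrine-like cells at 4388 to 4614 CPM. In sums of this kind, fewer cells of a type within a class and less RNA per cell cannot be told apart. The member UMIs of enterocyte-like cells came mostly from 1 of their clusters, cluster 14, whose values are given below.

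**Figure D1:**
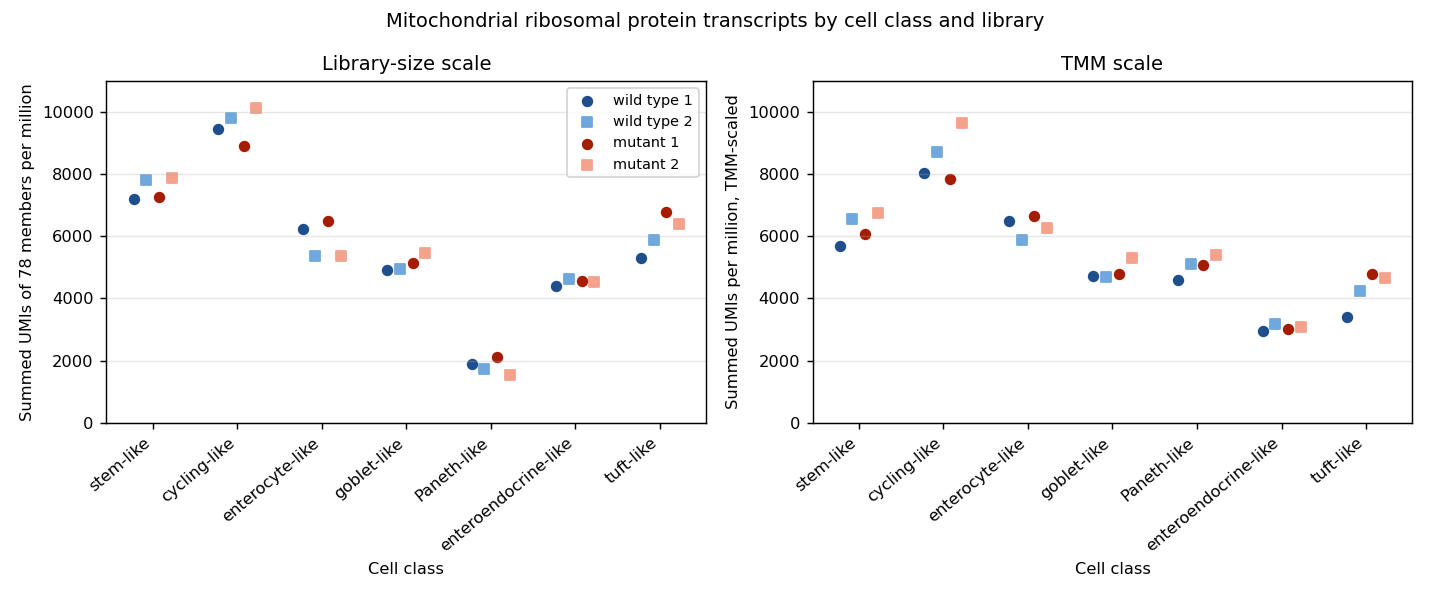
Summed level of the 78 members (y axis, CPM) in 7 cell classes (x axis), 1 point per library, scaled by library size only (left) and by TMM (right). Cycling-like cells are highest on both scales, Paneth-like cells are lowest by library size and enteroendocrine-like cells are lowest by TMM.

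With TMM the order held for most single members. Cycling-like cells had the highest mean TMM-scaled level for 70 of the 78 members, 43 large and 27 small. Enteroendocrine-like cells had the lowest TMM-scaled level for 71, 45 large and 26 small. By library size the summed level was lowest in Paneth-like cells, as given above, and the lowest class of each member was not counted on that scale. The maximum lay in enterocyte-like cells for Mrpl15, Mrpl27, Mrpl34, Mrps21 and Mrps36, in enteroendocrine-like cells for Mrpl1, in Paneth-like cells for Mrpl53 and in goblet-like cells for Mrpl52, 8 members singled out after their values were seen. Mrps22 spanned the widest range, from 11.2 ± 1.2 CPM in enteroendocrine-like to 64.6 ± 7.2 CPM in cycling-like cells (TMM-scaled, SD, n = 4). The other wide ranges ended at the same classes for Mrpl12 (52.6 to 295 CPM), Mrpl18 (42.0 to 221 CPM), Mrpl42 (54.7 to 282 CPM) and Mrps18b (17.4 to 78.2 CPM), while Mrps36 ran from 31.3 CPM in enteroendocrine-like to 148 CPM in enterocyte-like cells. The mean of Mrps33 moved only between 93.7 CPM in tuft-like and 135 CPM in cycling-like cells.

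**Figure D2:**
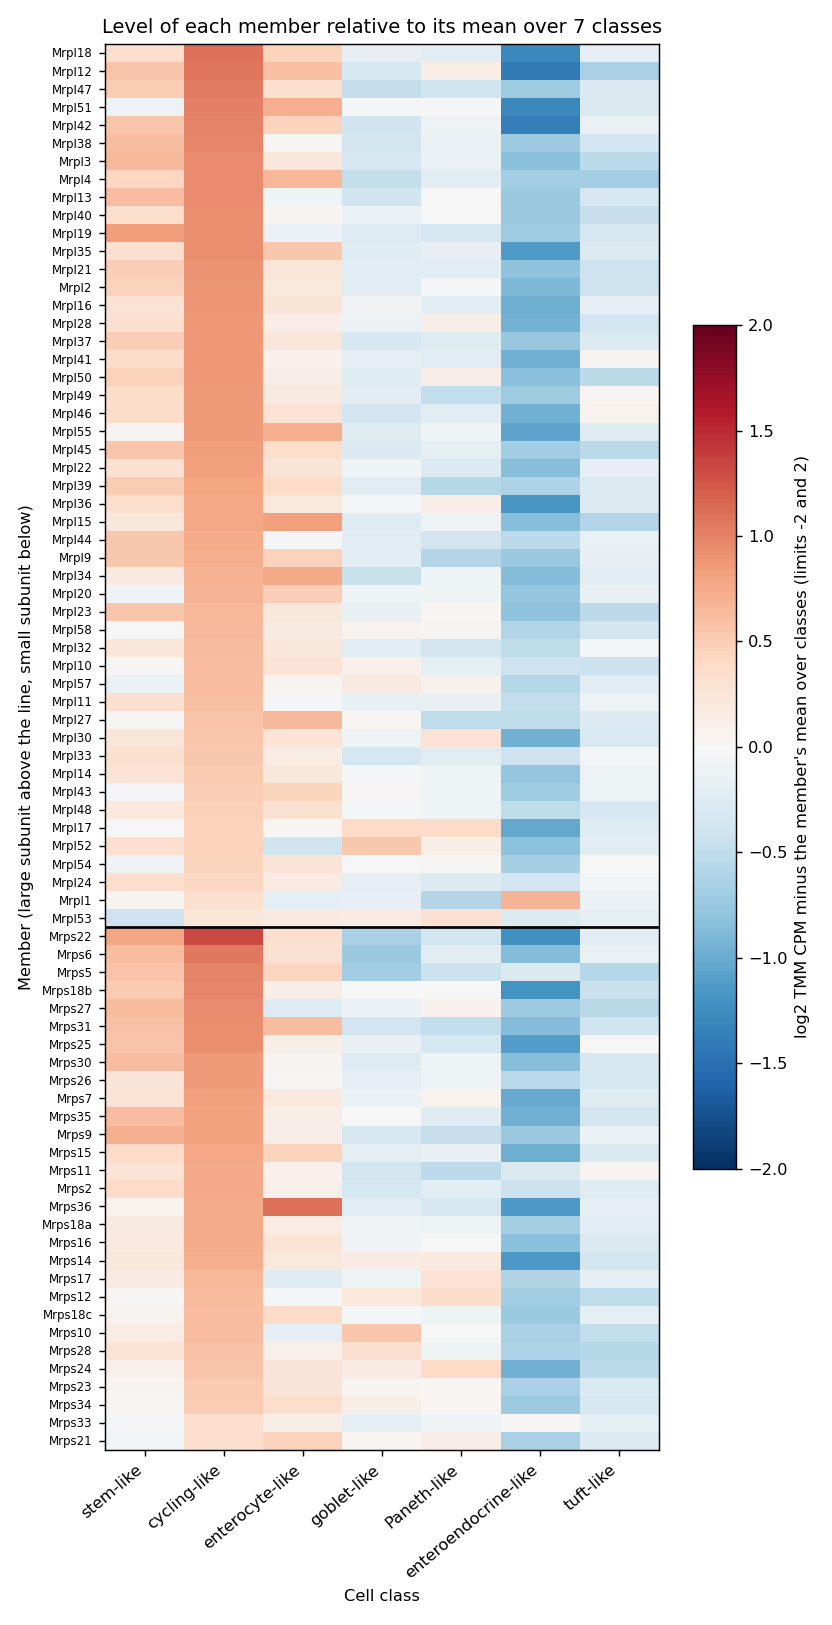
Level of each of the 78 members (rows, large subunit above the line) in 7 cell classes (columns), as log2 TMM-scaled CPM minus the member's own mean over the classes, with the colour scale ending at -2 and 2. Most members are highest in the cycling-like and lowest in the enteroendocrine-like column, while Mrps36 is highest in enterocyte-like and Mrpl1 in enteroendocrine-like cells.

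Each class was tested against the mean of the other 6 with the library as a block, by edgeR's quasi-likelihood test with Benjamini-Hochberg adjustment over 15432 genes, and a member is called at an adjusted p under 0.05. In cycling-like cells all 78 members were called higher (35.1% of all genes tested were, and 30.3% were lower), with a median log2 difference of 0.89 against -0.01 over all genes. All 78 calls held with library size as the only scaling. For the tests of classes and of crypt against enterocyte-like cells, the share of all genes called was counted with TMM only. Counts of members given for library size only therefore have no background beside them. The log2 difference was 1.56 ± 0.090 (SE) for Mrps22, 1.27 ± 0.064 for Mrpl18 and 1.27 ± 0.065 for Mrpl12, and the smallest was that of Mrpl53 at 0.28.

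In stem-like cells 57 members were higher and 1 lower (background 36.1% and 29.2%), with a median of 0.37. Mrpl19 (0.97 ± 0.086) and Mrps22 (0.93 ± 0.099) led, and the member called lower was Mrpl53 (-0.49 ± 0.067). With library size only, 76 were higher and 1 lower. In enterocyte-like cells 53 were higher and 5 lower (background 38.2% and 37.6%), with a median of 0.27, and with library size only 29 were higher and 7 lower. Mrps36 (1.27 ± 0.054), Mrpl15 (0.97 ± 0.053) and Mrpl34 (0.90 ± 0.058) were furthest up, and Mrpl52 (-0.44 ± 0.067), Mrps17, Mrps27, Mrps10 and Mrpl1 were called lower under both scalings.

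In enteroendocrine-like cells 76 members were lower and 1 higher (background 32.8% and 31.7%), with a median of -0.87. Mrpl12 (-1.65 ± 0.093), Mrpl42 (-1.56 ± 0.10) and Mrpl18 (-1.50 ± 0.094) were furthest down. Mrpl1, the protein of the stalk beside the tRNA exit site, was higher (0.79 ± 0.072), and Mrps33 (0.02 ± 0.065) was not called. With library size only, the split was 36 lower and 5 higher, the 5 being Mrpl1, Mrpl24, Mrpl53, Mrps33 and Mrps5.

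Before scaling by TMM, Mrpl1 stood at 87.8, 108, 82.8 and 107 CPM in the enteroendocrine-like cells of the 4 libraries and at 55.4, 61.3, 50.9 and 58.4 CPM in their cycling-like cells. Every enteroendocrine-like value lay above every cycling-like value. Mrpl12 stood the other way, at 66.0, 74.6, 98.5 and 73.3 CPM in enteroendocrine-like and 329, 318, 345 and 328 CPM in cycling-like cells, also without overlap.

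In goblet-like cells 43 members were lower and 9 higher (background 29.2% and 27.6%), with a median of -0.19, and with library size only 21 were lower and 10 higher. The 3 furthest down were of the small subunit, Mrps6 (-0.89 ± 0.096), Mrps5 (-0.81 ± 0.082) and Mrps22 (-0.77 ± 0.12). Mrps10 (0.64 ± 0.078), Mrpl52 (0.63 ± 0.062) and Mrpl17 (0.46 ± 0.071) were higher. Mrpl52 stood at 162, 234, 175 and 239 CPM in goblet-like and at 81.2, 103, 101 and 86.2 CPM in enterocyte-like cells, without overlap.

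For Paneth-like and tuft-like cells the direction of the family followed the scaling. In Paneth-like cells 25 members were lower and 9 higher (background 21.0% and 22.1%), but 78 lower and 0 higher with library size only. In tuft-like cells 42 were lower and 0 higher (background 21.3% and 15.7%), but 0 lower and 39 higher with library size only. The share of all genes called with library size only was not counted, so those counts are not read as results about the members. That scaling moved the median of all genes from -0.05 to -1.79 in Paneth-like, from -0.12 to 0.49 in tuft-like, from -0.05 to 0.62 in enteroendocrine-like, from 0.04 to 0.36 in stem-like, from -0.01 to 0.18 in cycling-like and from -0.07 to -0.19 in enterocyte-like cells. Relative to the median of all genes, the members' median was -0.08 in Paneth-like and -0.18 in tuft-like cells with TMM, and -0.07 and -0.19 with library size only. It was 0.04 and -0.02 with no filter on low counts, and -0.35 and -0.75 with DESeq2, which also turned that of goblet-like cells from -0.12 to 0.12. In Paneth-like, tuft-like and goblet-like cells the members' own median was -0.09, -0.20 and -0.21 with DESeq2. With TMM it was -0.12, -0.30 and -0.19. The median of all genes was 0.26, 0.55 and -0.33 with DESeq2, a fit that kept genes of low count, so mainly that median moved.

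The comparison of crypt cells with enterocyte-like cells asks how the family changes as dividing cells become absorptive. The enterocyte-like sums rest mostly on 1 cluster, cluster 14, described below. It gave 47918, 51566, 47945 and 63641 of their 56352, 73125, 57335 and 83746 large subunit UMIs in the 4 libraries. The differences given here therefore describe mainly that cluster. Crypt cells had more of most members: 60 were called higher, 38 large and 22 small, 4 lower, and 14 were not called (edgeR's quasi-likelihood test with Benjamini-Hochberg adjustment, library as a block). Over all genes tested, 41.9% were higher and 37.8% lower. The median log2 difference was 0.45 over members, 0.43 over the large and 0.51 over the small subunit, and 0.07 over all genes; with library size only, which called 71 higher and 1 lower, it was 0.72 over members and 0.35 over all genes.

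Mrps27, a pentatricopeptide repeat protein of the small subunit, stood at 33.1, 32.9, 28.7 and 33.2 CPM in crypt cells and at 14.1, 10.7, 13.9 and 9.39 CPM in enterocyte-like cells. The 2 classes did not overlap, and the log2 difference was 1.16 ± 0.12 (SE, edgeR adjusted p = 3.06e-05). Mrpl19 (1.06 ± 0.12), Mrpl13 (0.97 ± 0.11), Mrpl52 (0.83 ± 0.11) and Mrpl40 (0.76 ± 0.10) had the smallest p-values in the large subunit and were higher in crypt cells. Mrps17 (0.81 ± 0.096), Mrps30 (0.79 ± 0.094) and Mrps25 (0.75 ± 0.081) did so, with Mrps27, in the small subunit.

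Mrps30, a large subunit protein despite its name, stood at 62.0, 48.9, 61.4 and 54.7 CPM in crypt and 33.6, 20.7, 35.0 and 22.0 CPM in enterocyte-like cells, without overlap. The S18 relatives were not alike in their calls: Mrps18b (0.80 ± 0.11) and Mrps18a (0.48 ± 0.081) were higher, and Mrps18c (0.11 ± 0.078) was not called, though differences between the 3 were not tested. Mrpl12 (0.38 ± 0.085), Mrps12 (0.51 ± 0.087), Mrps22 (0.90 ± 0.13), Mrpl44 (0.75 ± 0.11), which resembles a ribonuclease, and Mrpl58 (0.32 ± 0.084) were all higher.

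The 4 members called lower in crypt cells were Mrps36, Mrps21, Mrpl34 and Mrpl27. Mrps36 stood at 108, 127, 105 and 125 CPM in crypt and 133, 142, 129 and 143 CPM in enterocyte-like cells, and every enterocyte-like value lay above every crypt value. Its log2 difference was -0.51 ± 0.065 (edgeR adjusted p = 1.10e-04), and it was called lower in each of the other 11 settings tried. Mrps21 (-0.23 ± 0.071), Mrpl34 (-0.20 ± 0.072) and Mrpl27 (-0.20 ± 0.065) lost the call, and their direction, with library size only. They also lost it with no filter on low counts, with cells centred within libraries, at a finer clustering, and without wild type 1 or without mutant 1, where Mrps36 alone was called lower. Mrpl27 also lost it without wild type 2 and without mutant 2, and Mrpl34 at a coarser clustering.

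Most genes of the related lists were also higher in crypt cells. Of 77 cytosolic ribosomal proteins tested, 76 were higher (median 0.82). Of 28 genes for mitoribosome assembly, 20 were higher and 4 lower (median 0.64), and of 15 mitochondrial translation factors 10 were higher and 1 lower (median 0.31). Of 5 mitoribosome proteins with other names, 4 were higher. Those with the smallest p-values included Ptcd3 (1.15 ± 0.098), a small subunit protein, Mrm3 (1.80 ± 0.15), a methyltransferase of the large subunit RNA, and Tsfm (0.93 ± 0.12), an elongation factor. Mterf3, Mrm1, Trub2 and Ndufab1 were the assembly genes called lower, and Mtif3 the translation factor. Ndufab1, the mitochondrial acyl carrier protein, is also a subunit of respiratory complex I.

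Within the crypt, cycling-like cells had more member transcripts than stem-like cells. This comparison was added after the member levels had been seen, so its counts and p-values describe a difference already known. Of the 78 members 75 were called higher and 0 lower, 46 of 49 large and 29 of 29 small, by edgeR's quasi-likelihood test with Benjamini-Hochberg adjustment (background 34.1% higher and 32.8% lower). The median was 0.47 over members and -0.02 over all genes. Of the 77 cytosolic ribosomal proteins, 1 was higher and 26 were lower (median -0.08). With library size only, 1 cytosolic protein was higher and 74 lower, and the median of all genes was -0.12 while that of the members was 0.36.

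Mrpl51 showed the largest excess. It stood at 105, 114, 116 and 107 CPM in stem-like cells and at 238, 219, 213 and 221 CPM in cycling-like cells, without overlap, and the log2 difference was 1.12 ± 0.052 (edgeR adjusted p = 7.57e-15). Mrpl55 (0.80 ± 0.051), Mrpl18 (0.77 ± 0.044), Mrpl57 (0.74 ± 0.050), Mrpl20 (0.74 ± 0.045) and Mrps36 (0.67 ± 0.050) came next. Mrpl24 (0.06 ± 0.045), Mrpl19 (0.10 ± 0.048) and Mrpl23 (0.10 ± 0.046) were the 3 not called, so Mrpl19, among the furthest up in crypt against enterocyte-like cells, did not pass the test here.

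**Figure D3:**
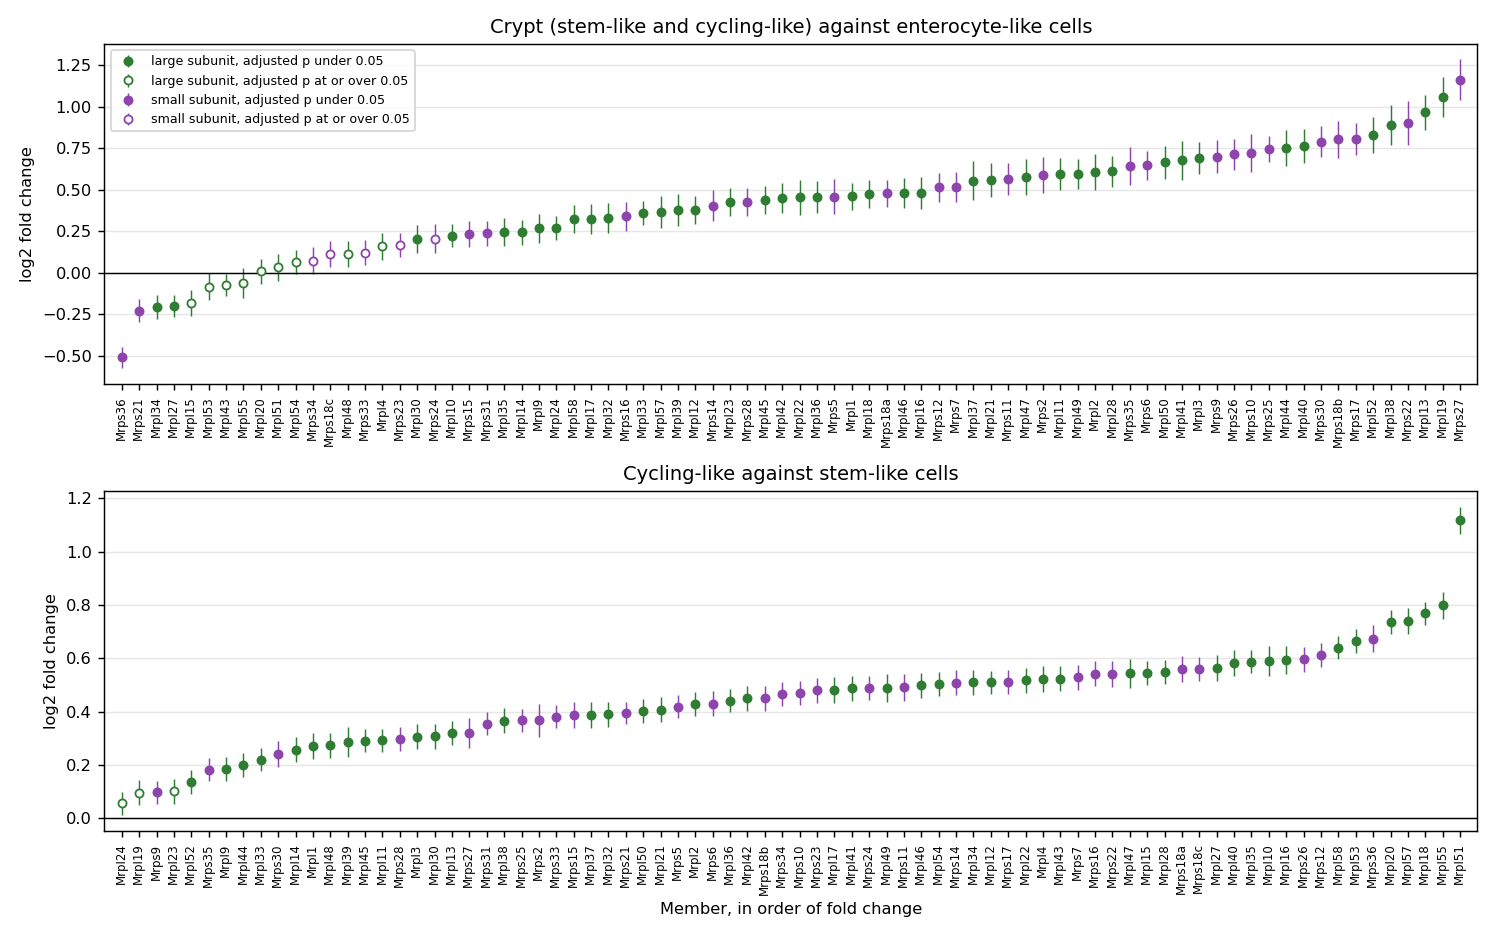
Log2 difference with its standard error for each of the 78 members (x axis, large subunit in green, small in purple), for crypt against enterocyte-like cells (top) and cycling-like against stem-like cells (bottom), filled where the adjusted p is under 0.05. In the upper panel 60 members are called above 0 and 4 below, and in the lower panel 75 are called above 0.

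Member levels also differed between clusters of 1 class. In enterocyte-like cluster 14 (leading genes Reg1, Arg2, Il18, Car4 and Sis) the members summed to 8484, 8346, 8020 and 8138 CPM by library size, and in enterocyte-like cluster 16 (leading genes Clca4a, Slc28a2, Ada, Enpp3 and Nt5e, which mark the villus tip) to 1537, 1073, 2281 and 1197 CPM. Cells of cluster 16 were shallow, with a median of 2170 UMIs against 14446 in cluster 14, and 13.2 to 17.0% of their UMIs were mitochondrial, against 5.62 to 6.95%. The part of depth and cell quality in the difference was not tested. Low levels were not particular to cluster 16. The members summed to 1194, 1116, 2323 and 1421 CPM in enterocyte-like cluster 7 (leading genes Slc13a1, Tmigd1 and Slc10a2). In cluster 8 (Slc5a12, Gda and Xdh) they summed to 1950, 1401, 2494 and 1531 CPM. Both were shallow too, with medians of 3144 and 2852.5 UMIs. Cluster 15 (Fabp2 and Fabp1) lay between, at 4458, 4526, 4185 and 4266 CPM.

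The comparison of cluster 14 with cluster 16 was added after the member levels had been seen. Its counts and p-values therefore describe a difference already known and do not test it. There 77 members were higher in cluster 14 and 1 lower (edgeR, background 38.0% and 31.4%), with a median of 2.68 against 0.22 over all genes. All 77 cytosolic ribosomal proteins tested were higher too (median 2.85). Mrpl44 stood at 55.3, 50.4, 65.1 and 48.2 CPM in cluster 14 and 2.72, 3.25, 8.56 and 3.46 CPM in cluster 16 (3.63 ± 0.27). Mrpl12 stood at 284, 268, 313 and 262 and 23.1, 25.6, 68.5 and 19.4 CPM (3.12 ± 0.22). Neither gene overlapped between the clusters, though the values of Mrpl44 in cluster 16 rest on 2 to 7 UMIs a library.

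Mrps28 was the exception, at 98.7, 63.9, 94.2 and 51.0 CPM in cluster 14 and 87.1, 131, 94.2 and 148 CPM in cluster 16. It was higher in cluster 16 in both libraries of set B, equal or lower there in set A, and the clusters overlapped across libraries. Its log2 difference was -0.79 ± 0.22 (edgeR adjusted p = 0.00252), from 44 to 281 UMIs per library in cluster 16. Small subunit members summed to 2889, 2834, 2687 and 2762 CPM in cluster 14 and 572, 449, 779 and 488 CPM in cluster 16. Mrps28 was thus a larger part of that sum in cluster 16 in every library. Its part in the ratio of large to small subunit there was not tested.

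Goblet-like clusters differed in the same direction. Their comparison was likewise added after the member levels had been seen, so its counts do not test the difference. The members summed to 5585, 5594, 5657 and 6012 CPM in cluster 6 (leading genes Agr2, Guca2a and Klk1) and to 1768, 1843, 2219 and 2003 CPM in cluster 0 (leading genes Ido1, Zg16, Fcgbp, Clca1 and Muc2). Of the 78 members 75 were higher in cluster 6 and 0 lower (edgeR, background 36.9% and 34.0%), with a median of 1.23 against 0.07; with library size only these medians were 1.68 and 0.52. Mrps27 stood at 16.8, 19.9, 14.4 and 17.8 CPM in cluster 6 and 3.16, 0.636, 2.11 and 3.70 CPM in cluster 0 (2.35 ± 0.30). The values of Mrps27 in cluster 0 rest on 1 to 9 UMIs a library. Mrpl14, Mrpl43 and Mrpl15 were not called. All 77 cytosolic ribosomal proteins tested were higher in cluster 6 too (median 2.01), and their share of UMIs was 15.02 to 16.02% there and 2.29 to 3.48% in cluster 0. Cluster 0 also had fewer UMIs per cell, a median of 4808 against 11189.5.

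**Figure D4:**
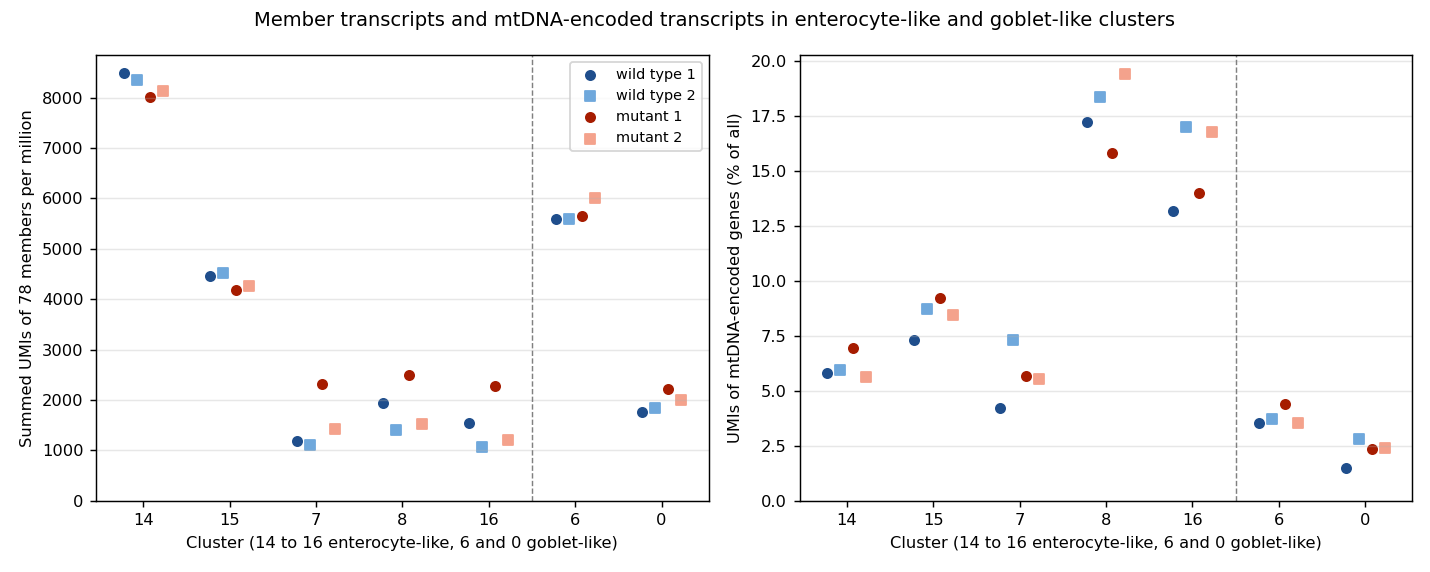
Summed level of the 78 members (left, CPM by library size) and share of UMIs from mitochondrial DNA (right, percent) in enterocyte-like clusters 14, 15, 7, 8 and 16 and goblet-like clusters 6 and 0, 1 point per library. Cluster 14 lies above cluster 16 and cluster 6 above cluster 0 in every library on the left, and cluster 16 lies above cluster 14 on the right.

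In all epithelial cells large subunit UMIs summed to 4621, 4356, 4712 and 4357 CPM and small subunit UMIs to 2456, 2286, 2462 and 2296 CPM, a ratio of 1.88, 1.91, 1.91 and 1.90. Goblet-like cells had a lower ratio, 1.75, 1.75, 1.78 and 1.78, and tuft-like cells one of 1.90, 1.95, 1.96 and 2.01. Among clusters the ratio was 1.94, 1.94, 1.99 and 1.95 in cluster 14 and 1.69, 1.39, 1.93 and 1.45 in cluster 16, and it was 1.74, 1.75, 1.76 and 1.78 in cluster 6 and 1.89, 1.75, 2.07 and 1.82 in cluster 0. Mrps28 was a larger part of the small subunit sum in cluster 16, as given above, and the ratio without that gene was not computed. Against the mean of the other classes, the log2 ratio was -0.10 ± 0.021 in goblet-like and -0.06 ± 0.013 in Paneth-like cells (SD over 4 libraries), below 0 in 4 of 4 libraries each. It was 0.07 ± 0.039 in tuft-like, 0.06 ± 0.031 in enterocyte-like, 0.04 ± 0.0057 in cycling-like and 0.03 ± 0.014 in stem-like cells, above 0 in 4 of 4 libraries each.

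For those 6 classes the exact two-sided sign-flip test over libraries gave p = 0.125, the smallest it allows with 4 libraries, so none could pass 0.05. In enteroendocrine-like cells the value was -0.04 ± 0.075, below 0 in 2 of 4 libraries (exact p = 0.5). With Mrps30 and Mrps18a moved to the large subunit and Mrps36 left out, the values were -0.12 in goblet-like, -0.09 in Paneth-like and 0.10 in enterocyte-like cells. Taking the median member of each subunit in place of the sum turned the direction in 4 of those 6 classes, with 0.14 in Paneth-like, -0.02 in enterocyte-like, -0.05 in cycling-like and -0.04 in stem-like cells.

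The comparison of mutant with wild type asks whether a mutation in a mitochondrial tRNA goes with a change in the genes for the mitochondrial ribosome. No member passed the test in all epithelial cells, crypt cells or enterocyte-like cells (edgeR's quasi-likelihood test with Benjamini-Hochberg adjustment; 0% of all genes were called in each). At an unadjusted p under 0.05 there were 0 members in each, and DESeq2 also called 0 members after adjustment. With the set as a term, 4, 4 and 1 members had an unadjusted p under 0.05 and 0 were called, with smallest adjusted p-values of 0.668, 0.220 and 0.999, while 0.162%, 1.12% and 0% of all genes were called. Genotype effects in crypt minus those in enterocyte-like cells also gave 0 calls, 0 at an unadjusted p under 0.05.

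The summed level by library size was 7077, 6642, 7174 and 6653 CPM in all epithelial cells, so set A and set B differed more than the genotypes did. Mutants exceeded wild types by 0.01 on the log2 scale (exact two-sided permutation p = 0.667; with 2 libraries against 2 the smallest possible is 0.33). With TMM the difference was 0.12, with both mutants above both wild types, at that smallest p. In crypt cells the members summed to 8701, 9067, 8511 and 9359 CPM and in enterocyte-like cells to 6242, 5362, 6501 and 5358 CPM, again with overlapping genotypes. The log2 ratio of large to small subunit differed by 0.0094 between genotypes in all epithelial cells (exact permutation p = 0.667) and by 0.0286 in enterocyte-like cells (exact permutation p = 0.667). In enterocyte-like cells both mutants lay above both wild types, at the smallest possible p, when subunits were assigned by structure (0.0239) or the median member was taken in place of the sum (0.18). Without 1 library the difference of the sums ran from 0.0026 (without mutant 1) to 0.0546 (without mutant 2).

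Within sets, the count of members higher in the mutant followed the scaling. With TMM, 52 members were higher in the mutant of both sets and 4 lower in all epithelial cells, against 24.4% and 25.6% of all genes. In crypt cells 40 were higher and 4 lower (background 25.9% and 26.8%), and in enterocyte-like cells 31 and 9 (background 23.1% and 26.1%). With library size only the counts were 21 higher and 24 lower, 19 and 20, and 23 and 21, where 10.6%, 14.8% and 17.2% of all genes were higher in both sets and 45.6%, 42.6% and 33.0% lower. On that scale 30.8%, 25.6% and 26.9% of the members were lower in both sets. The members' median in all epithelial cells was 0.10 against 0.00 for all genes with TMM, and -0.01 against -0.12 with library size only. The median was 0.11 over the large and 0.08 over the small subunit with TMM.

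By the rule for named genes, Mrpl50, Mrpl10, Mrpl54 and Mrpl53 were the large subunit members higher in both sets. Mrpl50 stood at 79.4, 66.0, 97.5 and 70.2 CPM, a TMM-scaled log2 difference of 0.39 within set A, 0.22 within set B. Mrpl10 stood at 36.8, 23.5, 43.5 and 25.1 CPM (0.34 within set A, 0.23 within set B), and its 2 sets differed more than its genotypes. The small subunit members were Mrps10 (0.41 within set A, 0.26 within set B), Mrps34, Mrps16 and Mrps17. Mrps16 stood at 131, 146, 155 and 155 CPM, with both mutants above both wild types.

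Mrpl19, Mrpl1, Mrps6 and Mrps22 were lower in the mutant of both sets. Mrpl19 stood at 35.7, 35.0, 30.7 and 31.0 CPM and Mrps22 at 48.0, 44.3, 43.0 and 39.6 CPM, both mutants below both wild types. By library size, both mutants lay below both wild types for 6 of the 78 members and above for 5. The share over all genes was not counted, so such a separation is not read as a genotype effect. The TMM-scaled differences were small, for Mrpl19 -0.12 within set A, -0.04 within set B and for Mrps22 -0.06 within set A, -0.03 within set B. Mrpl44 stood at 50.0, 47.4, 66.3 and 47.5 CPM (0.50 within set A, 0.13 within set B), where mutant 1 stood apart and mutant 2 did not.

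**Figure D5:**
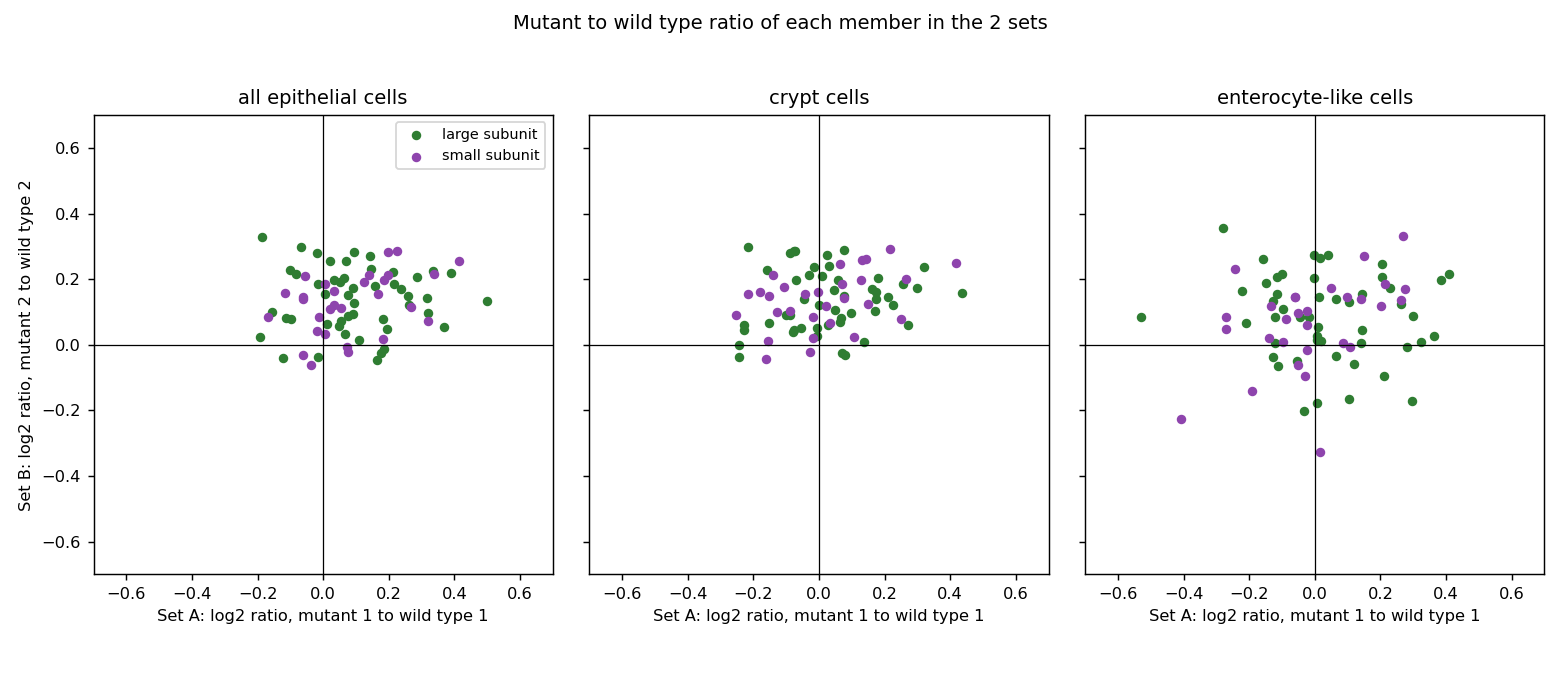
Log2 difference of mutant over wild type for each of the 78 members in set A (x axis) and set B (y axis), TMM-scaled, in all epithelial, crypt and enterocyte-like cells, with large subunit members in green and small in purple. In all epithelial cells 52 members lie above 0 on both axes and 4 below 0 on both, but with library size only these counts are 21 and 24.

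The cells behind these genotype sums were not matched. Cycling-like cells came from different clusters: cluster 2 held 121, 746, 377 and 689 cells in the 4 libraries, cluster 3 387, 112, 1536 and 68 and cluster 4 232, 266, 1238 and 384. Cluster 12 held 54, 147, 77 and 444 cells and cluster 21 held 58, 124, 194 and 67. In cluster 12 the members summed to 9033, 12429, 9990 and 11902 CPM by library size. Cluster 3 was mostly from set A and cluster 2 mostly from set B. Of 1198, 2923, 1840 and 3083 enterocyte-like cells, the member-rich cluster 14 held 289, 532, 732 and 692 and the member-poor cluster 16 held 202, 863, 202 and 530, so in each set the mutant had the larger share of the first and the smaller share of the second. Crypt cells were 35.2, 35.8, 50.3 and 36.9% of the epithelial cells. Erythroid and Paneth-like marker levels differed as given above, and the part of all of these in the member levels was not tested. Of the related lists, 22 of 28 assembly genes were above 0 (median 0.10), the 77 cytosolic ribosomal proteins had a median of 0.14, and the translation factors had one of -0.01, with 0 called in each.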

How the data were processed

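The 4 libraries were deposited as filtered matrices of raw UMI counts per gene and barcode, made with Cell Ranger per the file headers; the genome was mm10 per the submitters' processing notes, and whether introns or strand were used in counting is not given in these sources. Kept barcodes had 500 or more genes, 1000 or more UMIs and a mitochondrial share below 30%. Doublets were the top scrublet scores at 0.8% per 1000 barcodes, since its automatic threshold marked 0 to 14.4% of a library. Cells were clustered with scanpy 1.11.5 (2000 variable genes without members, mitochondrial, ribosomal protein and sex genes; 50 components; 15 neighbours; Leiden resolution 1.0) and named from markers, so class sizes and names are rebuilt, not the authors'.

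UMIs were summed per library and class and tested with edgeR 4.0.16 (quasi-likelihood, TMM, Benjamini-Hochberg adjustment over all genes passing its expression filter, threshold 0.05), with DESeq2 1.42.0 as an alternative. Scripts were tested on simulated data. Summed levels and ratios were tested by exact permutation. Other scalings, filters, doublet rules, clusterings, a set term and leaving out each library were tried. Gene places came from GENCODE models and promoters from RefSeq tables.

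Members and lists were chosen with earlier results of these data known. Named members are the most and least abundant of each subunit, the widest ranges over classes, the smallest p-values per subunit and direction in crypt against enterocyte-like cells, the largest changes shared by both sets at a mean of at least 10 CPM, and 10 of special structure or role. The contrasts of cycling-like with stem-like cells and between clusters were added after the member levels had been seen. They are descriptions and not tests, and members named there are the extremes of each.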

Additional observations from a re-analysis of the deposited data

How the results depend on the processing

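No member was called between genotypes under any alternative tried. With the set as a replicate block the members' median minus that of all genes was 0.107, 0.0796 and 0.0547 in all epithelial, crypt and enterocyte-like cells (log2), and the block changed no call of a member; the sets are read from titles and software versions, which do not say that their libraries were paired. Leaving out 1 library at a time gave 0.110 to 0.170, -0.0170 to 0.203 and -0.0680 to 0.177, against 0.105, 0.0845 and 0.0469 with all libraries, the values below 0 being without mutant 2 in crypt cells and without wild type 2 or mutant 1 (-0.0112) in enterocyte-like cells, and the 0.170 without mutant 1. In enterocyte-like cells it was 0.0977 with automatic doublet calls, 0.329 with centred libraries and 0.135 at resolution 2. The genotype difference in summed level ran from -0.0435 to 0.0655, -0.0617 to 0.0754 and -0.111 to 0.168 without 1 library, and was -0.00194 in crypt cells with a limit of 50% mitochondrial UMIs. The crypt log2 ratio of large to small subunit, 0.00136, became -0.00191 by structure, -0.0338 from medians, -0.000565 and -0.00166 with limits of 15% and 50%, and -0.0123 to 0.0150 without 1 library. Crypt against enterocyte-like cells had 1 member lower with library size only, no filter, centring or resolution 2, and 1 to 4 without 1 library. There Mrpl27 was 0.0715, Mrpl34 0.0676 and Mrps21 0.0456 with library size only, Mrpl34 0.390 and Mrps21 0.126 with centring, and Mrpl34 0.108 at resolution 2. Its median difference, 0.380, was 0.612 with DESeq2, 0.951 with centring and 0.683 at resolution 2. With DESeq2 the members' own median was 0.426, against 0.453 in the main fit, and that of all genes -0.186, against 0.0727. The median difference with DESeq2 was 0.598 for cycling-like against stem-like cells, 3.17 for cluster 14 against 16 and 1.56 for cluster 6 against 0 (1.06 to 1.19 without 1 library). By class, members lower in stem-like cells numbered 7 with RLE normalization, 3 with no filter, 8 with DESeq2 and 2 to 4 without any 1 library. With library size only, 29 were higher in enterocyte-like, 21 lower in goblet-like, 0 higher and 78 lower in Paneth-like, 5 higher and 36 lower in enteroendocrine-like, and 39 higher and 0 lower in tuft-like cells. RLE and DESeq2 each called 2 higher in enteroendocrine-like cells, and RLE 26 lower in tuft-like cells. Without 1 library, 15 to 23 were lower in Paneth-like (15 without mutant 2, 16 without wild type 2), 3 to 5 in enterocyte-like (3 without either library of set B) and 23 to 42 in tuft-like cells (23 without wild type 2). The causes were not tested. The rarest sums rest on few cells, 59 Paneth-like and 35 tuft-like in wild type 1.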

Other observations

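Cells in clusters given no class name differed in member level. In cluster 13 (1617 cells, leading genes Fabp6, Mgat4c and Gsdmc4; Fabp6 encodes the ileal bile acid binding protein) the 78 members summed to 8219, 8600, 7711 and 8674 CPM by library size in wild type 1, wild type 2, mutant 1 and mutant 2. In cluster 17 (143 cells, leading genes Sntb1, Thsd7a and Ptprt) they summed to 1465, 1463, 3919 and 2187 CPM, below cluster 13 in every library. The lymphocyte cluster left out of the epithelial cells (148 cells) stood at 4179, 5067, 4324 and 3978 CPM.

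A list drawn up for the stress response to impaired mitochondrial translation had 18 genes tested. Their median log2 difference between mutant and wild type was 0.46 in all epithelial cells and 0.60 in crypt cells, with 15 of 18 above 0 in each. Over all genes the median was -0.0034 and -0.0093. The name of the list is not a result, and what moved these genes was not tested. Without a set term edgeR's quasi-likelihood test with Benjamini-Hochberg adjustment called 0 and 0 of them, 3 and 7 having an unadjusted p under 0.05, and DESeq2 counts for this list were not made. With the set as a term it called 1 and 9 higher, where 0.162% and 1.12% of all genes and 0 of the 78 members were called. Villus tip genes, of which 9 were tested, had a median of -0.33 in all epithelial cells with 0 called. With TMM 6 of them were lower in both sets, where 25.6% of all genes were, and 3 went opposite ways. The villus tip cluster 16 was 4.76, 11.8, 2.02 and 6.997% of the epithelial cells in the 4 libraries.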
